A study of Mus musculus with 8 samples.

Results

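The genes described here encode subunits of the mitochondrial respiratory chain and ATP synthase, complexes I to V. Members were taken by gene name: array probes whose gene name starts with Nduf followed by a, b, c, s or v and a number, is Sdha to Sdhd, or starts with Uqcr, Cox4 to Cox8 or Atp5. This took in 124 probes of 85 genes. The brightest probe stood for each gene, and a gene was kept when 4 or more of the 8 arrays had that probe well above background, which left 82 genes of 18547 measured features (genes, or probes without a gene name). Complex I had 37 members, complex II 4, complex III 8, complex IV 15 of 18, and complex V 18. The names do not all fit the complexes they point to. Ndufa4 is now assigned to complex IV, Cox7a2l is a factor that joins complexes into supercomplexes, Atp5s and Atp5sl are proteins of related name that are not core subunits, and Atp5c1-ps is listed as a pseudogene of Atp5c1 whose probe may share signal with the parent gene.

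RNA came from the livers of male mice with fibrosis induced for 5 weeks by CCl4 or by TAA, both agents that injure hepatocytes. The mice were then followed for 1 or 2 weeks, during which they were injected every 3 days with miR-29a or with a negative control oligonucleotide (NC). There was 1 array for each of the 8 combinations: CCl4 at 1 week with NC, CCl4 at 1 week with miR-29a, CCl4 at 2 weeks with NC, CCl4 at 2 weeks with miR-29a, and the same 4 for TAA. All 8 livers thus carried a fibrosis treatment and an injected oligonucleotide, and an uninjured or uninjected liver was not analysed here. The labels give neither strain nor age and do not say whether a sample is 1 animal or a pool, so p-values measure only the spread between these samples. The comparisons ask how the members differed between agents, between weeks and between oligonucleotides.

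Complex I takes electrons from NADH and complex II, which is also an enzyme of the citrate cycle, takes them from succinate. Both pass them through ubiquinone to complex III and, by cytochrome c, to complex IV, which reduces oxygen, while complex V uses the proton gradient to make ATP. The mitochondrial genome encodes some core subunits and the nucleus all the others, so both genomes supply every complex except complex II. In liver the chain supports urea synthesis, gluconeogenesis and fatty acid oxidation, and nuclear members are known targets of NRF1, the ETS factor GABP (NRF2), ERR-alpha and YY1.

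The oligonucleotide under test carries the sequence of mature miR-29a-3p, shown in the RefSeq GRCm38.p6 form with the seed, bases 2 to 8, in capitals.
miR-29a-3p: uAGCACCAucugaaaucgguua
Promoters are shown next for 5 members that were lower under TAA at 1 week, since these genes carry the main difference and hold different letters at their starts. Each run covers 120 bases before to 30 after the RefSeq start (GRCm38.p6), read 5′ to 3′ on the strand of the gene. Capitals mark a match on either strand to GCGCATGC (NRF1 core), CCGGAAG (ETS), AAGGTCA (ERR) or AAGATGGC (YY1). The runs lie at chr1:92473729-92473878 (minus strand) for Ndufa10, chr9:50603820-50603969 (minus) for Sdhd, chr19:3912745-3912894 (minus) for Ndufs8, chr15:102671018-102671167 (minus) for Atp5g2 and chr3:105959234-105959383 (minus) for Atp5f1, named Atp5pb in RefSeq.
Ndufa10: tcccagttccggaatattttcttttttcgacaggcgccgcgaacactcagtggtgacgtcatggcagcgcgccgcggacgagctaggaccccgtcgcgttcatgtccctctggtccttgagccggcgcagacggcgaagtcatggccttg
Sdhd: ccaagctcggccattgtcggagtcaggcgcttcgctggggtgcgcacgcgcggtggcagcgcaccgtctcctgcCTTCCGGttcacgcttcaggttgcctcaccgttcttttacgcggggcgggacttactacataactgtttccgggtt
Ndufs8: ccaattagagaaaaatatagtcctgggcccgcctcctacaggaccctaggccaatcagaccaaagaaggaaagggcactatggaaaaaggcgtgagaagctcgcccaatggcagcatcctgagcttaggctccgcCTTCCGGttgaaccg
Atp5g2: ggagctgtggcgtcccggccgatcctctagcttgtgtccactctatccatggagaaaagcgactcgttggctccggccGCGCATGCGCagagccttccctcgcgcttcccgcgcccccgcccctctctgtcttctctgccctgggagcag
Atp5f1: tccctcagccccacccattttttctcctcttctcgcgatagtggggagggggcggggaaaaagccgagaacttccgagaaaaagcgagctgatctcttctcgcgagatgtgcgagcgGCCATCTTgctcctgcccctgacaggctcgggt

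Ndufa10 held none of these 4 strings, Sdhd and Ndufs8 held CCGGAAG on the opposite strand, Atp5g2 held GCGCATGC on both strands in overlap, and Atp5f1 held AAGATGGC on the opposite strand. RefSeq promoters of 300 bases (250 before to 50 after the start) were matched for 67 of the 82 members, 3 of them through an older symbol. At least 1 of the 4 strings stood in 35 of the 67 (52.2%), against 19.7% of all 27025 genes of the table. GCGCATGC stood in 14.9% of member promoters against 3.05% of all, AAGATGGC in 16.4% against 3.19%, CCGGAAG in 23.9% against 9.93%, and AAGGTCA in 11.9% against 5.38%. The AAGATGGC matches were in complexes I (7 of 32) and V (4 of 16), with none in the 19 matched members of the other complexes. Among the members called lower under TAA than under CCl4 at 1 week, 12 of 25 promoters held at least 1 string, against 23 of 42 for the other members. These are descriptions of letters, not of bound sites.

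Levels are the log2 of the scanner's processed Cy3 signal minus the 75th percentile of the array, so a level of 0 is the 75th percentile. From 43.9% to 48.4% of the spots other than controls were well above background and none was saturated. The TAA 1 week NC array stood apart from the others: its mean correlation with them over all features was 0.965, against 0.970 to 0.983 for the other 7. The summed linear level of the 6 measured of 9 neutrophil markers was 1378 there against 6.69 to 11.4 elsewhere. Their log2 levels ran from -0.03 to 10.05 there, so the sum rests largely on the brightest. Of the 6, 5 were higher and 1 was lower than on the CCl4 1 week NC array. The summed linear level of 8 Kupffer cell markers was 319 on the TAA 1 week NC array against 40.8 to 75.3 elsewhere. Hepatocyte markers were present on every array, with a summed linear level of 7736 there and 7430 to 8971 elsewhere, but their median log2 level was lowest there, 8.71 against 9.26 to 9.66. All CCl4 arrays lay in 1 row of the slide and all TAA arrays in the other, so agent and slide row cannot be told apart.

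Most nuclear respiratory chain genes had lower levels in TAA than in CCl4 livers, but none passed the test in the additive fit of both weeks. Over all 8 arrays 77 of 82 members had a fitted TAA minus CCl4 difference below 0, with a median of -0.41 on the log2 scale against -0.13 for all features. Most of that gap was shared by bright features: 1096 features between the members' lower and upper quartile of mean level had a median of -0.31. The medians were -0.36 for complex I, -0.62 for complex II, -0.38 for complex III, -0.34 for complex IV and -0.46 for complex V. With limma, 0 of 82 members had an adjusted p under 0.05, and so did 0% of all features. Calls depended on the fit and the scaling: with an agent by week term in the fit 24 members were called lower (29.3%, against 18.5% of all features) and 1 higher (1.22%, against 8.61%), and with arrays scaled to their median 53 were called lower (64.6%, against 28.1%). An unadjusted p under 0.05 with a lower level was found for 38 members (46.3%), against 19.7% of all features. In 54 members (65.9%) the TAA array was the lower one in all 4 matched pairs (same week, same oligonucleotide), which held for 27.1% of all features. Under quantile normalization that count was 24 (29.3%), against 19.0% of all features.

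The extremes of each complex give the size of these differences. In complex I they were Ndufa10, an accessory subunit, at -0.72 and Ndufb7 at 0.02. In complex II they were the membrane anchor Sdhd at -0.78 and the iron-sulfur subunit Sdhb at -0.45. Complex III ran from -0.76 for Uqcrfs1, the Rieske iron-sulfur protein, to -0.23 for Uqcr11. Complex IV ran from -0.71 for Cox5a, a structural subunit, to 0.59 for Cox6a2, the isoform of heart and skeletal muscle. Complex V ran from -0.92 for Atp5c1-ps to -0.17 for Atp5sl. The 5 members above 0 were Ndufa4l2, Ndufb7, Cox4i2, Cox6a2 and Cox6b2.

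**Figure D1:**
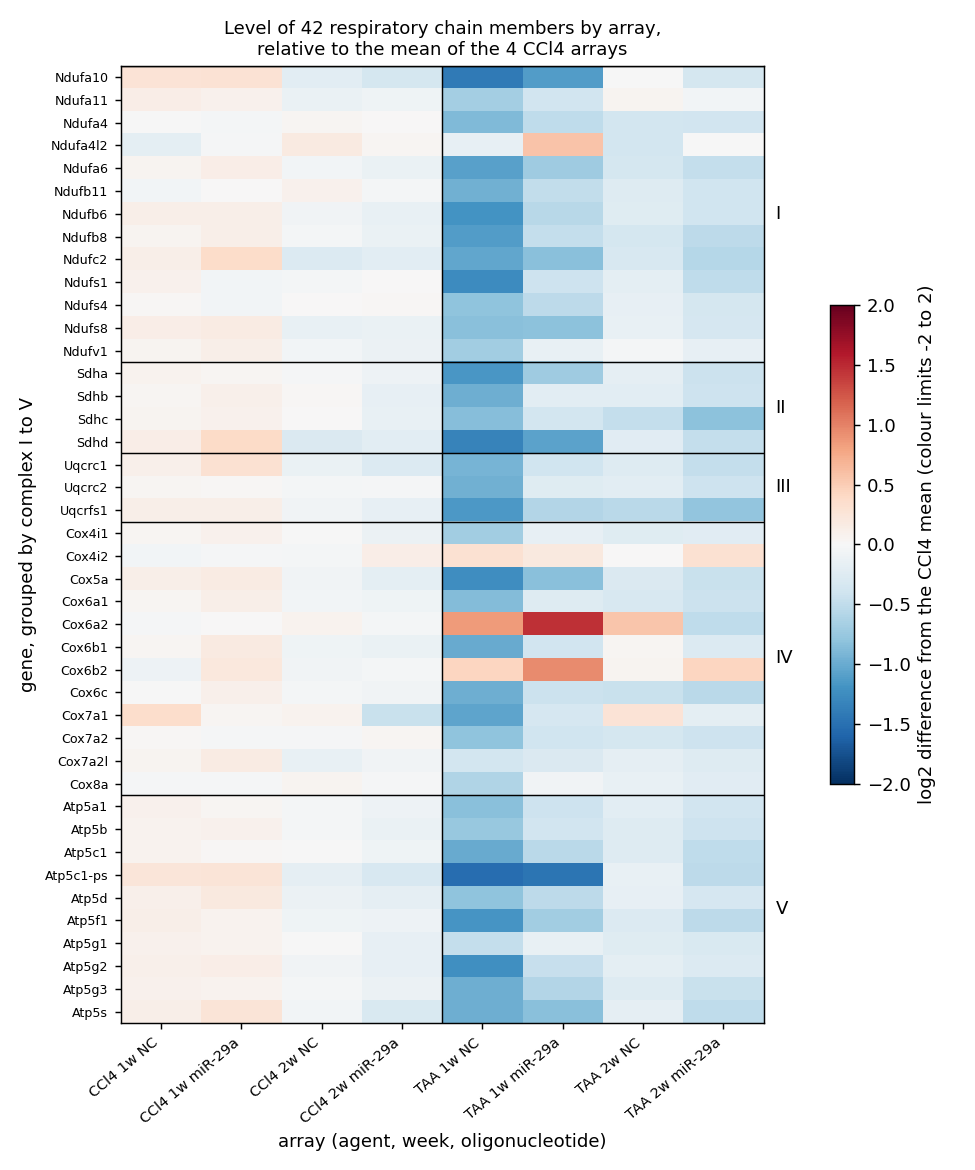
Each row is 1 of 42 members, those that passed the test at 1 week and a set of textbook subunits, grouped by complex, and each column is 1 array. Colour is the log2 level minus the mean of the 4 CCl4 arrays for that gene (blue lower, red higher). The TAA 1 week NC column is blue for most rows, and Ndufa10, Sdhd, Ndufs8 and Atp5c1-ps are also blue in the TAA 1 week miR-29a column.

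The fitted difference was larger at 1 week, and this came mostly from the NC pair. The members' median TAA minus CCl4 difference at 1 week was -0.84 in the NC pair and -0.27 in the miR-29a pair. At 2 weeks it was -0.19 in the NC pair and -0.26 in the miR-29a pair. In the fit 28 of 82 members were lower under TAA than under CCl4 at 1 week with limma's adjusted p under 0.05 (34.1%), against 23.1% of all features. In the other direction 1 member was higher (1.22%), against 12.7%. Below, fell and rose are short for these calls of TAA against CCl4. With no uninjured liver, a lowered TAA level and a raised CCl4 level cannot be told apart. The members' median was -0.58 against -0.16 for all features. Bright features in general were lower under TAA at 1 week: 1096 features between the members' lower and upper quartile of mean level (5.91 to 7.77) had a median of -0.42. In 60 of 82 members (73.2%) both TAA arrays lay below both CCl4 arrays, against 42.6% of all features. Complex I had 10 of 37 members that fell, complex II 2 of 4, complex III 2 of 8, complex IV 5 of 15 and complex V 9 of 18.

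The count of members that fell rests on the scaling and on single arrays. It was 12 under quantile normalization (14.6%, against 17.8% of all features) and 58 after normexp background correction (70.7%, against 29.4%). It was 75 when arrays were scaled to their median (91.5%, against 57.6%), which alone moved the median of all features from -0.16 to -0.75. These scalings differ by a constant per array, so the members' distance from that median (-1.17 against -0.75) could not change between them and gives no separate support. Under quantile normalization, which can change it, the members lay at -0.20 against -0.06. Without the TAA 1 week NC array 15 members fell (18.2% of all features) and their median was -0.23 against -0.10. Without the TAA 1 week miR-29a array 69 fell (26.6%), without the CCl4 1 week NC array 6 (9.24%), and without the CCl4 1 week miR-29a array 3 (5.07%). Leaving out a week 2 array, which lends only its spread, gave 12 for each CCl4 array and 18 for each TAA array. With the week 1 arrays fitted alone 6 members fell (7.32%), against 7.22% of all features. The part that the immune cell and hepatocyte marker levels of the TAA 1 week NC array have in the difference was not tested.

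**Figure D2:**
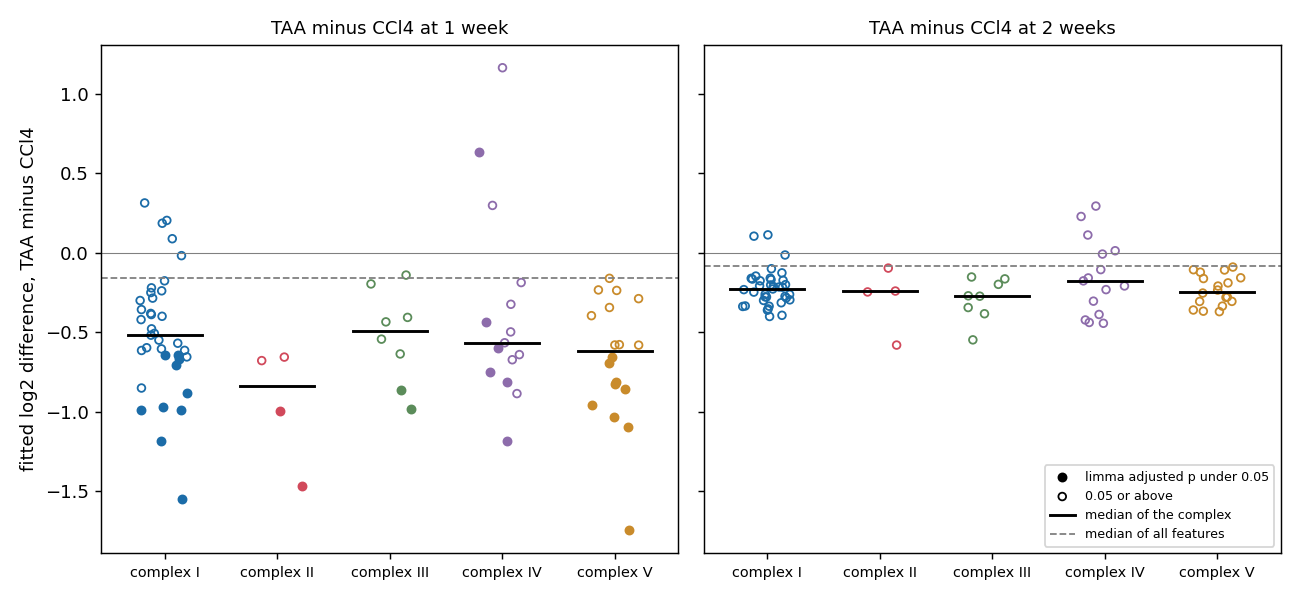
Fitted log2 difference, TAA minus CCl4, of each member by complex at 1 week (left) and 2 weeks (right). Filled points have a limma adjusted p under 0.05, black bars are complex medians and the dashed line is the median of all features. At 1 week 29 points are filled and all but 1 of them lie below 0; at 2 weeks none is filled.

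In complex I the largest fall was that of Ndufa10. In the order NC then miR-29a, which is kept below, its levels were 4.66 and 4.68 in CCl4 livers at 1 week, 4.17 and 4.03 at 2 weeks, 2.97 and 3.27 in TAA livers at 1 week, and 4.38 and 4.03 at 2 weeks. Both TAA arrays of 1 week lay below the other 6, and at 2 weeks the agents overlapped. The 1 week difference was -1.55 (SE 0.19), a 2.93-fold lower level, with a limma adjusted p of 0.0053. Its probe spans a splice junction, at chr1:94361039-94363996 (mm9). Ndufs8, a core subunit that carries iron-sulfur clusters, read 4.44 and 4.47, then 4.16 and 4.18 under CCl4, and 3.47 and 3.49, then 4.16 and 3.97 under TAA. It too was lowest on both TAA 1 week arrays, with a difference of -0.97 (SE 0.13, limma adjusted p = 0.0063).

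Ndufc2, an accessory subunit of the membrane arm, fell by 1.18 on the log2 scale at 1 week, and Ndufa6 and Ndufb6, also accessory subunits, each fell by 0.99. The other complex I members that fell were Ndufa4, Ndufa11, Ndufb8, Ndufb11 and Ndufs4, at -0.64 to -0.88. Ndufs1, the largest core subunit, had a difference of -0.85 with an adjusted p of 0.075, and Ndufv1, which binds NADH and flavin, one of -0.51 with an adjusted p of 0.10. Both missed the threshold in the limma fit. Ndufa4l2, an isoform induced in hypoxia, had the highest difference of the complex, 0.31, with an adjusted p of 0.31. The remaining members with values above 0 were Ndufa2, Ndufa3 and Ndufb7, at 0.09 to 0.20.

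Complex II had the lowest median of the 5 complexes, -0.83 at 1 week, over 4 members. Sdhd, 1 of the anchor subunits that bind ubiquinone, read 7.30 and 7.54, then 6.87 and 6.94 under CCl4, and 5.82 and 6.09, then 6.93 and 6.69 under TAA. The 1 week TAA arrays were below all others and the 2 week arrays of both agents lay close together. Its 1 week difference was -1.47 (SE 0.17), a 2.76-fold lower level, with a limma adjusted p of 0.0051, from a probe at chr9:50404630-50404689 (mm9). Sdha, the flavoprotein that oxidises succinate, read 6.58 and 6.55, then 6.49 and 6.41 under CCl4, and 5.35 and 5.80, then 6.34 and 6.08 under TAA. It fell by 0.99 on the log2 scale at 1 week (SE 0.20, limma adjusted p = 0.017), and was lower under TAA in all 4 pairs.

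Sdhb read 8.14 and 8.20, then 8.13 and 7.94 under CCl4, and 7.13 and 7.90, then 7.90 and 7.69 under TAA. Sdhc, the other anchor, read 5.93 and 5.96, then 5.88 and 5.73 under CCl4, and 5.03 and 5.51, then 5.40 and 5.06 under TAA. Neither passed the test at 1 week: the differences were -0.66 for Sdhb (limma adjusted p = 0.11) and -0.68 for Sdhc (adjusted p = 0.062). Sdhc kept nearly the same value at 2 weeks, -0.58, the lowest there when each member is read from its brightest probe. Its second passing probe gave -0.30 at 1 week and -0.31 at 2 weeks. In the miR-29a pair at 1 week, which does not hold the TAA NC array, the complex II median difference was -0.60 and those of the other complexes ran from -0.40 to -0.20.

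In complex III, Uqcrfs1 read 7.06 and 7.07, then 6.88 and 6.79 under CCl4, and 5.80 and 6.36, then 6.41 and 6.16 under TAA. All 4 TAA values lay below all 4 CCl4 values. It fell by 0.98 at 1 week (SE 0.22, limma adjusted p = 0.023) and was at -0.55 at 2 weeks, where the adjusted p was 0.44. Uqcrc1, a core protein of the matrix side, fell by 0.86 at 1 week. Its partner Uqcrc2 was at -0.64 with an adjusted p of 0.097. The other 5 members ran from -0.54 to -0.14 and did not pass.

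In complex IV the members that fell were common forms and Cox7a2l, the factor that joins complexes into supercomplexes. The few with values above 0 were tissue-restricted isoforms (Cox4i2, Cox6a2, Cox6b2), though Cox7a1, also restricted, was below 0. Cox6a2 and Cox6b2 were dim, and dim probes in general read higher under TAA at 1 week. With no filter on dim probes the median of all features was 0.35, against -0.16 with it, so isoform and dimness were not separated here. Cox5a read 8.52 and 8.56, then 8.32 and 8.20 under CCl4, and 7.15 and 7.56, then 8.10 and 7.96 under TAA, lowest at 1 week under TAA. It fell by 1.18 on the log2 scale at 1 week (SE 0.18, limma adjusted p = 0.0083). Cox6b1, Cox6c, Cox7a2 and Cox7a2l also fell, by 0.81, 0.75, 0.60 and 0.44. Cox4i1, Cox6a1 and Cox8a, the common forms of their subunits, had differences of -0.50, -0.64 and -0.32 with adjusted p of 0.094, 0.063 and 0.24.

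Cox6b2, an isoform best known from testis, was the 1 member that rose: it read -1.07 and -0.77, then -1.05 and -1.01 under CCl4, and -0.54 and -0.03, then -0.91 and -0.55 under TAA. The TAA array was the higher in all 4 pairs, and the 1 week difference was 0.64 (SE 0.16, limma adjusted p = 0.030), but it passed in only 6 of 21 alternative settings. Cox6a2 read -2.91 and -2.89, then -2.83 and -2.94 under CCl4, and -2.03 and -1.43, then -2.34 and -3.39 under TAA, with a 1 week difference of 1.16 (adjusted p = 0.064). Both TAA arrays of 1 week were above all others. Cox4i2, an isoform regulated by oxygen, was higher under TAA in all 4 pairs, with a difference of 0.30 at 1 week and an adjusted p of 0.17. Cox7a1, another muscle isoform, was at -0.88 with an adjusted p of 0.088. Of 11 striated muscle markers 1 (Myh6) was measured, at -3.19 and -2.43 on the TAA 1 week arrays and -3.07 to -2.13 elsewhere, and of 5 adipocyte markers none was.

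The members at the edge of the filter were all of this complex. Cox6a2 was well above background on 7 arrays and Cox8b, the muscle form of subunit 8, on 3, with levels of -4.73 to -2.98. Cox7b2 and Cox8c were not well above background on any array.

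Complex V had 9 of 18 members that fell, the same share as complex II. Atp5c1-ps read 5.28 and 5.29, then 4.85 and 4.72 under CCl4, and 3.51 and 3.57, then 4.88 and 4.51 under TAA. Its 1 week difference was -1.74 (SE 0.16), a 3.34-fold lower level (limma adjusted p = 0.0043), and its probe lies at chr13:77808693-77808752 (mm9). Atp5c1 itself, the central stalk subunit gamma, read 7.79 and 7.74, then 7.72 and 7.63 under CCl4, and 6.72 and 7.18, then 7.47 and 7.21 under TAA. It fell by 0.82 at 1 week (adjusted p = 0.030), so the parent gene and the pseudogene probe had the same direction but not the same size.

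The catalytic subunits Atp5a1 (alpha) and Atp5b (beta) fell by 0.69 and 0.65. Atp5d (delta) fell by 0.81 and Atp5f1, a peripheral stalk subunit, by 1.03. Of the 3 genes for the same c-ring protein, Atp5g2 and Atp5g3 fell by 0.96 and 0.86, while Atp5g1 was at -0.39 with an adjusted p of 0.11. Atp5s fell by 1.09. The other members, among them Atp5e, Atp5h, Atp5j, Atp5k, Atp5l and Atp5o, ran from -0.58 to -0.16 and did not pass. Of the 28 members that fell, Ndufa10, Sdhd and Atp5c1-ps did so in all 21 alternative settings and on no setting did any of the 28 change sign.

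At 2 weeks the fitted differences were smaller, though the pair medians were close to that of the miR-29a pair at 1 week. None of 82 members passed with limma, and 0% of all features did; at an unadjusted p under 0.05 there were 3 members, all lower (3.66%), against 7.82% of all features. The members' median was -0.23 against -0.08 for all features, and 76 of 82 were below 0. The complex medians lay between -0.27 (complex III) and -0.18 (complex IV).

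The change of the agent difference between the weeks was tested as an interaction. It was above 0, meaning a higher TAA minus CCl4 difference at 2 weeks than at 1 week, for 69 of 82 members. The median was 0.28 against 0.06 for all features. The interaction also takes in changes of the CCl4 livers, where Ndufa10, Atp5c1-ps, Sdhd and Ndufs8 were lower at 2 weeks than at 1 week. It passed with limma for 4 members (4.88%), near the 5.52% of all features: Ndufa10 at 1.66 (SE 0.26, adjusted p = 0.032), Atp5c1-ps at 1.65, Sdhd at 1.37 and Ndufs8 at 0.87. In complexes III and IV no member passed, with extremes of 0.70 for Uqcrc1 and -0.24 for Uqcrq, and of 1.11 for Cox7a1 and -1.15 for Cox6a2. These calls rested on single arrays. Without the TAA 1 week NC array the members' median was -0.03 against 0.01 for all features. Without the TAA 1 week miR-29a array it was 0.58 against 0.11.

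The 13 subunits encoded by the mitochondrial genome had a median closer to 0 than the nuclear members at 1 week, and the difference between these gene groups was not tested. In the NC pair of 1 week their median TAA minus CCl4 difference was -0.05, with 7 of 13 below 0, and in the miR-29a pair it was 0.24, with 10 of 13 above 0. Over both pairs their median at 1 week was 0.12, 9 of 13 were above 0 and none passed with limma, against -0.58 for the nuclear members; at 2 weeks it was -0.24, with all 13 below 0 and none past the threshold. COX1, the catalytic core of complex IV, read 10.35 and 10.44, then 10.44 and 10.24 under CCl4, and 10.58 and 10.92, then 10.26 and 10.36 under TAA. Both TAA 1 week arrays were the highest, where the nuclear partner Cox5a was lowest. ND1, a core membrane subunit of complex I, read 6.17 and 6.55, then 6.26 and 6.27 under CCl4, and 5.48 and 5.91, then 6.11 and 5.67 under TAA, and was lower under TAA in all 4 pairs. The files place 7 of the 13 probes on the mitochondrial chromosome and 6 at chr1:24619243-24621798 (mm9), so which copy of the sequence their signal comes from was not tested.

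**Figure D3:**
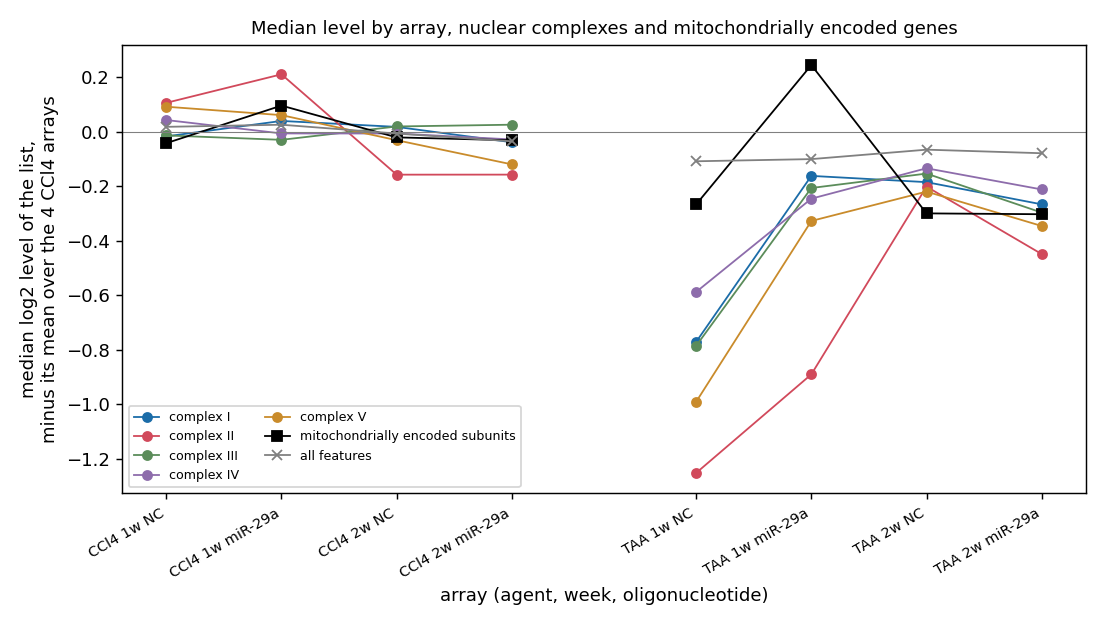
Median log2 level of each nuclear complex, of the 13 mitochondrially encoded genes (black squares) and of all features (grey crosses) on each array, minus the mean of the 4 CCl4 arrays. All 5 nuclear complexes are lowest on the TAA 1 week NC array, and complex II stays low on the TAA 1 week miR-29a array, where the mitochondrially encoded genes are at their highest.

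Other nuclear genes of mitochondria were also lower at 1 week under TAA, where 34.1% of the members and 23.1% of all features fell. In every list of this paragraph, cytosolic ribosomal proteins included, the share that fell was larger than that of the members. Of 13 carriers and subunits that the name rule left out 7 fell (Etfdh, which feeds electrons from fatty acid oxidation into ubiquinone, at -1.64). Of 44 assembly factors 22 fell, with Cox10, which makes heme for complex IV, at -2.23; of 23 citrate cycle and pyruvate dehydrogenase genes 11 fell, with Idh3b at -1.80; and of 25 import, chaperone and pore genes 17 fell, with the chaperone Hspa9 at -1.42. Of 78 mitochondrial ribosomal proteins 45 fell, with Mrpl37 at -1.91. No gene of these 5 lists rose. Of 81 cytosolic ribosomal proteins, which are not mitochondrial, 32 fell and none rose, with a median of -0.38.

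Among 18 regulators of respiratory chain genes 4 fell and 1 rose, a share near those of all features (23.1% lower, 12.7% higher). Tfam, which packages mitochondrial DNA and starts its transcription, fell by 1.37 (SE 0.20, limma adjusted p = 0.0075). Gabpa, the DNA-binding part of GABP, was at -1.03, Tfb1m at -0.67 and Yy1 at -0.54, all with an adjusted p under 0.05, and Myc rose by 0.84. Nrf1 was at 0.01 and Esrra, which encodes ERR-alpha, at -0.08, both far from the threshold, and Ppargc1a, a coactivator of the programme, was at 0.67 with an adjusted p of 0.14. Of 11 hepatocyte markers 2 fell, also near the 23.1% of all features, with Cps1, a urea cycle enzyme of the mitochondrial matrix, at -1.22. In whole liver, fewer cells of a type and less RNA per cell cannot be told apart.

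Where a gene had several probes, they did not always give the same size. In 27 members more than 1 probe passed the filter, and the TAA minus CCl4 difference at 1 week differed in sign among the probes of Ndufv3 and Atp5g1. For Ndufv3 the values were -0.02 for the brightest probe and -0.73 and 0.37 for the others; for Atp5g1 they were -0.39 and 0.07. For Sdhb the brightest probe gave -0.66 and one nearer the 5′ end gave -1.69. For Cox7a2l the values were -0.44, -0.49 and -1.63.

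Order along the transcript went with the size of the difference in the members. In 9 members the outermost passing probes lay at least 500 bases apart on the chromosome. Some of these pairs set a dim probe against a bright one, so position and dimness were not separated. Mean levels were -2.21, -0.82 and -1.44 for the 5′ probes of Atp5j, Ndufb11 and Ndufv3, and -1.47 for the 3′ probe of Cox7c. At 1 week the probe nearer the 5′ end had the lower TAA minus CCl4 difference in 8 of the 9, with medians of -0.91 at the 5′ side and -0.43 at the 3′ side. At 2 weeks it was the lower one in 0 of 9, with medians of -0.06 and -0.34. Among all 2035 genes with such probes the 5′ probe was the lower in 50.2% at 1 week and 31.0% at 2 weeks. Their medians at the 5′ and 3′ sides were -0.20 and -0.24 at 1 week, and -0.02 and -0.16 at 2 weeks. With the passing probe nearest the 3′ end in place of the brightest, 29 members fell at 1 week (35.4%, against 22.9% of all features).

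**Figure D4:**
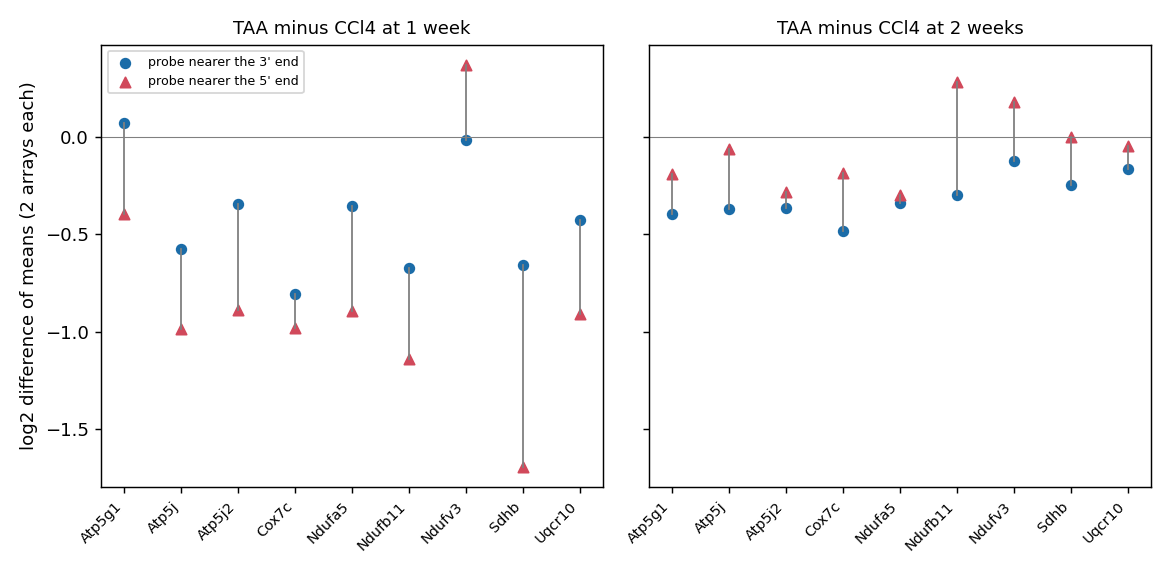
Difference of means, TAA minus CCl4, at 1 week (left) and 2 weeks (right) for the probe nearer the 5′ end (triangles) and the one nearer the 3′ end (circles) of 9 members. At 1 week the triangle is lower for 8 genes, and at 2 weeks the triangle is higher for all 9.

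Between 1 and 2 weeks after induction no member passed with limma, with both agents in one fit (0% of all features). The members' median was 0.10 against 0.03 for all features, and 2 of 82 (2.44%), Ndufa4 and Ndufb2, were higher at 2 weeks in all 4 pairs, against 6.03% of all features. The extremes were 0.27 for Ndufb3 and -0.08 for Ndufa4l2 in complex I, 0.26 for Sdha and -0.09 for Sdhc in complex II, and 0.18 for Uqcr10 and -0.05 for Uqcrc1 in complex III. In complex IV they were 0.20 for Cox5a and -0.56 for Cox6a2, and in complex V 0.33 for Atp5c1-ps and -0.06 for Atp5g1. The median over members was -0.01 and -0.07 in the 2 CCl4 pairs (NC, miR-29a), 0.59 in the TAA NC pair and -0.11 in the TAA miR-29a pair, so 1 pair of 4 stood apart. That pair holds the TAA 1 week NC array, and without it the median over the remaining 7 arrays was -0.06.

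miR-29a against NC likewise gave no member past the threshold with limma (0% of all features), and none had an unadjusted p under 0.05. The median was 0.09 against 0.03 for all features, and 76 of 82 members were above 0. In all 4 pairs 3 members (3.66%) were higher with miR-29a, namely Ndufb7, Cox6b2 and Atp5e, against 10.3% of all features. The extremes were 0.28 for Ndufa4l2 and -0.04 for Ndufa10, 0.11 for Sdhb and 0.01 for Sdhc, and 0.13 for Uqcr10 and 0.05 for Uqcrq in complexes I to III. In complexes IV and V they were 0.31 for Cox6b2 and -0.15 for Cox7a1, and 0.21 for Atp5sl and -0.11 for Atp5c1-ps.

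The oligonucleotide pairs differed among themselves. The median member difference, miR-29a minus NC, was 0.01 in CCl4 livers at 1 week, -0.06 in CCl4 livers at 2 weeks, 0.54 in TAA livers at 1 week and -0.12 in TAA livers at 2 weeks. In the TAA 1 week pair 81 of 82 members were higher with miR-29a, all but Cox4i2, and the median of all features was 0.13. In the TAA 2 week pair 73 of 82 were lower with miR-29a. The interaction of oligonucleotide with week was below 0 for 81 of 82 members (median -0.36 against -0.07 for all features), and no member passed for that interaction or for the one with agent. Without the TAA 1 week NC array the median miR-29a difference was -0.06, and the interaction with week had a median of -0.08 with 60 of 82 members below 0. Each pair is 1 array against 1 array, and these comparisons share the TAA 1 week NC array with those of agent and week.

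**Figure D5:**
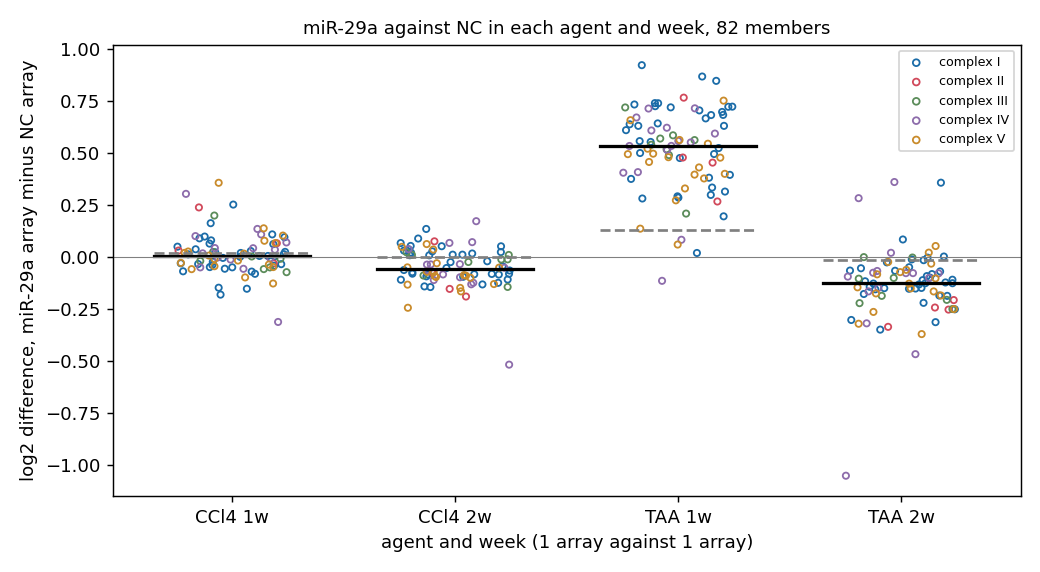
Log2 difference, miR-29a array minus NC array, of the 82 members in each agent and week, coloured by complex. Black bars are member medians and dashed bars medians of all features. Only the TAA 1 week pair has its member median (0.54) well above 0.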

How the data were processed

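One-colour Agilent mouse arrays (design with mm9 probe positions) were scanned and read with Agilent Feature Extraction 10.10.1.1, per the file headers. The deposited scanner files give a processed signal per spot, an intensity on a linear scale after background subtraction by that program. The authors' deposited matrix holds log2 values equal to the log2 processed signal minus 1 constant per array (99.76% to 99.83% of values within 0.01), so that the 75th percentile is about 0; its column medians were -4.06 to -3.45, with no centring of genes.

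Control spots and spots with outlier flags were left out, spots of a probe were averaged, and log2 signals were scaled to the 75th percentile of each array. Members keep the gene names of the files. limma 3.58.1 in R 4.3.3 was fitted to 18547 features as agent plus week plus oligonucleotide (4 residual degrees of freedom); differences within a week and the interaction came from a fit with an agent by week term (3 residual degrees of freedom), which pools the spread over all arrays. P-values were adjusted by the Benjamini-Hochberg method over all features. The number of arrays limits the precision. The members and lists were chosen with earlier results of these data known. Genes were named by rule: for each contrast the 3 members per complex with the largest difference among those past the threshold, or the extremes where none passed; a set of textbook subunits; members whose probes differ in sign; members at the filter's edge; and the gene of each other list with the largest difference. Others named for their probes or pairs were chosen after their values were seen. Alternatives were other background correction, scaling, filters and probe rules, the authors' matrix, and leaving out each array or matched pair.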

Additional observations from a re-analysis of the deposited data

Results flagged for a closer look

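For 4 members the agent difference itself differed between weeks by a test of the interaction (limma adjusted p under 0.05), which is 4.88% of members against 5.52% of all features, so the count is no larger than the background. The interaction, on the log2 scale, was 1.66 for Ndufa10, 1.65 for Atp5c1-ps, 1.37 for Sdhd and 0.87 for Ndufs8. Each was lower in TAA than in CCl4 livers at 1 week and close to them at 2 weeks. Levels of all 4 in the CCl4 livers were also lower at 2 weeks than at 1 week. Ndufa10 and Atp5c1-ps passed in 11 of 20 alternative settings, Sdhd in 8 and Ndufs8 in 6, and none changed sign.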

How the results depend on the processing

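With both weeks together 53 members (64.6%, against 29.3% of all features) passed for TAA against CCl4 when arrays were scaled to their median, with a member median of -0.80, and 25 (30.5%, against 27.1%) passed with an agent by week term added; 0 passed under each of the other settings, and the median stayed between -0.51 and -0.14. For the interaction, 4 members (4.88%, against 9.81% of all features in either direction) became 12 after normexp (14.6%, against 18.4%), 9 with median scaling (11.0%, against 18.6%), 7 with the mean of probes (8.54%, against 9.90%) and 0 without the filter, where 0% of all features passed; leaving out arrays or pairs gave 0 to 10, and its median ran from -0.03 to 0.58. At 1 week 28 members that fell became 58 after normexp, 12 with quantile normalization, 75 with median scaling (median -1.17), 8 without the filter (9.41%, against 6.13% of all features) and 6 with the week 1 arrays alone (7.32%, against 7.22%, so no excess of members was left); leaving out arrays or pairs gave 3 to 69. At 2 weeks the median was -0.028 with quantile normalization and -0.42 with median scaling, and -0.37 to -0.091 without single arrays or pairs. The count of members lower in all 4 pairs was 24 with quantile normalization (29.3%, against 19.0% of all features). For week and for miR-29a no member passed under any setting; the median changed sign without the TAA 1 week NC array, or without its pair, to -0.06 for both. The settings for single weeks, for lower counts in pairs, for the 3′ probe and for the blocks of agent and week were chosen after seeing the data. A slide block was not run, since all arrays share 1 slide. With the matched pairs as a block, 0 members passed for agent, for week and for miR-29a, as without the block.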
